A study of Mus musculus with 30 samples.

Results

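A set of 10 genes of the Notch pathway was followed by name through sorted mouse mammary cells: the receptors Notch1, Notch2 and Notch3, the ligands Jag1, Jag2 and Dll1, the DNA-binding partner Rbpj, and the target genes Hes1, Hey1 and Heyl. Of these 10 genes, 9 were among the 11137 genes of the expression table, and Heyl was not analysed here. The rule names genes and uses no expression value.

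Notch receptors are membrane proteins that are switched on by ligands of the Jagged and Delta-like families on a neighbouring cell. Ligand binding exposes the receptor to cleavage by an Adam protease and then by gamma-secretase, and the freed intracellular part enters the nucleus, joins Rbpj and turns on genes such as Hes1, Hey1 and Heyl, which encode transcriptional repressors. The mammary epithelium has an inner luminal layer, which makes milk, and an outer basal layer of contractile cells, and Notch signaling is known for favouring the luminal fate.

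Libraries were made from luminal and basal cells sorted by flow cytometry from female mice of mixed background, with leukocytes and endothelial cells gated out by CD45 and CD31. All mice carried K8rta:TETO CRE:mTmG, that is, a doxycycline-dependent Cre under the Krt8 promoter of luminal cells and a reporter that switches from tdTomato to GFP upon recombination. The K8iΔRank mice carried RANK fl/fl in addition, whereas the controls, called K8imTmG, kept an intact Rank gene, which encodes the receptor of the cytokine Rankl. All mice, controls included, drank doxycycline (1 mg/ml), from 3 to 8 weeks of age by the labels and from week 4 by the methods. Since Cre follows Krt8, basal cells of K8iΔRank mice are not the target of the deletion. Parous glands were taken 30 days into involution. Control mothers had nursed until lactation day 10, whereas K8iΔRank mothers lost their litters at lactation day 1, so that nursing and genotype cannot be told apart after pregnancy. Luminal libraries came from 3 virgin K8imTmG, 3 virgin K8iΔRank, 5 parous K8imTmG and 4 parous K8iΔRank mice. Basal libraries came from 3 virgin K8imTmG, 4 virgin K8iΔRank, 4 parous K8imTmG and 4 parous K8iΔRank mice. Of these animals, 13 gave a library of each lineage.

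The 30 libraries held 340445 to 3130419 reads in the table, and 1 read was worth 0.381 to 5.43 normalized counts, the unit of every level below. Each level is a count of 3′ tags scaled by the sequencing depth of its library. The libraries fell into 14 with 65.6 to 199 normalized counts of Clec2d and 16 with 0.641 to 8.68, a division for which the labels give no batch. All libraries of a group were on the same side except in luminal parous K8imTmG (replicates 1 and 4 high, 3 low) and basal parous K8iΔRank (replicates 2 and 4 high, 2 low). Virgin luminal K8iΔRank and all K8imTmG basal libraries were high, and virgin luminal K8imTmG, parous luminal K8iΔRank and virgin basal K8iΔRank libraries were low. Genotype and stage are therefore confounded with this division in most comparisons within a lineage, where they cannot be told apart from it. In virgin mice of either genotype the luminal and basal libraries also lay on opposite sides. The sorted lineages bore their markers: the 13 luminal markers summed to 5995 to 20490 in luminal and 649 to 2017 in basal libraries, and the 11 basal markers to 92.2 to 427 in luminal and 11326 to 20312 in basal libraries. Rank itself lay at 9.57 to 18.6 in virgin luminal K8imTmG and 11.5 to 23.8 in virgin luminal K8iΔRank libraries, which overlapped. In parous luminal K8iΔRank libraries, all Clec2d-low, it lay at 27.0 to 41.1, below the 3 Clec2d-low K8imTmG libraries (50.4, 64.9 and 49.3) and above the 2 Clec2d-high ones (20.2 and 12.8). Rank tags come from the 3′ end and do not read the deleted exons unless these lie there. The luminal cells were sorted as GFP+, and the authors report lower Rank by qPCR in such cells of K8iΔRank mice.

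The genes lie on several chromosomes of GRCm39 (GENCODE vM39): Notch1 (ENSMUSG00000026923.16) at chr2:26347915-26406675, Notch2 (ENSMUSG00000027878.13) at chr3:97920800-98057677, Notch3 (ENSMUSG00000038146.10) at chr17:32339794-32385893, Jag1 (ENSMUSG00000027276.9) at chr2:136923373-136958693, Jag2 (ENSMUSG00000002799.8) at chr12:112871421-112893437, Dll1 (ENSMUSG00000014773.15) at chr17:15587276-15597134, Rbpj (ENSMUSG00000039191.14) at chr5:53623494-53814704, Hes1 (ENSMUSG00000022528.10) at chr16:29882134-29886643 and Hey1 (ENSMUSG00000040289.10) at chr3:8726956-8732385. RefSeq promoters, each holding 250 bases before to 50 after a start site, were matched for 7 of the 10 genes, with 9 promoters in all. Hes1, Hey1 and Heyl were not matched. Rbpj binds a site with the core TGGGAA, and these letters were searched on both strands. They occurred in the promoters of Rbpj alone, at 2 places, which are shown because the protein that reads the core is the product of this gene. The longer form GTGGGAA occurred in none of the 9. Of all 32851 mouse promoters in the table (GRCm38.p6), 25.6% held TGGGAA and 6.38% held GTGGGAA. The core stands in capitals below, 5′ to 3′ on the plus strand of GRCm39, the strand of the gene.
Rbpj, chr5:53747529-53747554, core on the strand of the gene: tgaaaaaggcTGGGAAcccgcggcga
Rbpj, chr5:53747613-53747638, core on the opposite strand: cgctcgcattTTCCCAggacccctcc
A match to these letters is a description of the sequence, and binding was not measured.

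Luminal cells were compared with basal cells to place receptors, ligands and targets in the epithelium. Receptors Notch1 and Notch3 and the target Hey1 were higher in luminal cells, the ligands Jag1, Jag2 and Dll1 and, by a small margin, Rbpj were higher in basal cells, and Notch2 and Hes1 did not pass the test. In the 30 libraries 7 of the 9 genes passed an adjusted p of 0.05 (limma, Benjamini-Hochberg), 3 of them higher and 4 lower in luminal cells. Of all 11133 genes tested 55.7% passed, 28.7% higher and 27% lower, so that a call between the lineages is common and the members are described by their sizes. The median log2 difference, luminal minus basal, was −0.22 over the 9 members and 0.04 over all genes. Differences are on the scale of log2(normalized count + 1), which understates the change of genes near 0. In sorted bulk samples, fewer cells of a type and less RNA per cell cannot be told apart.

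**Figure D1:**
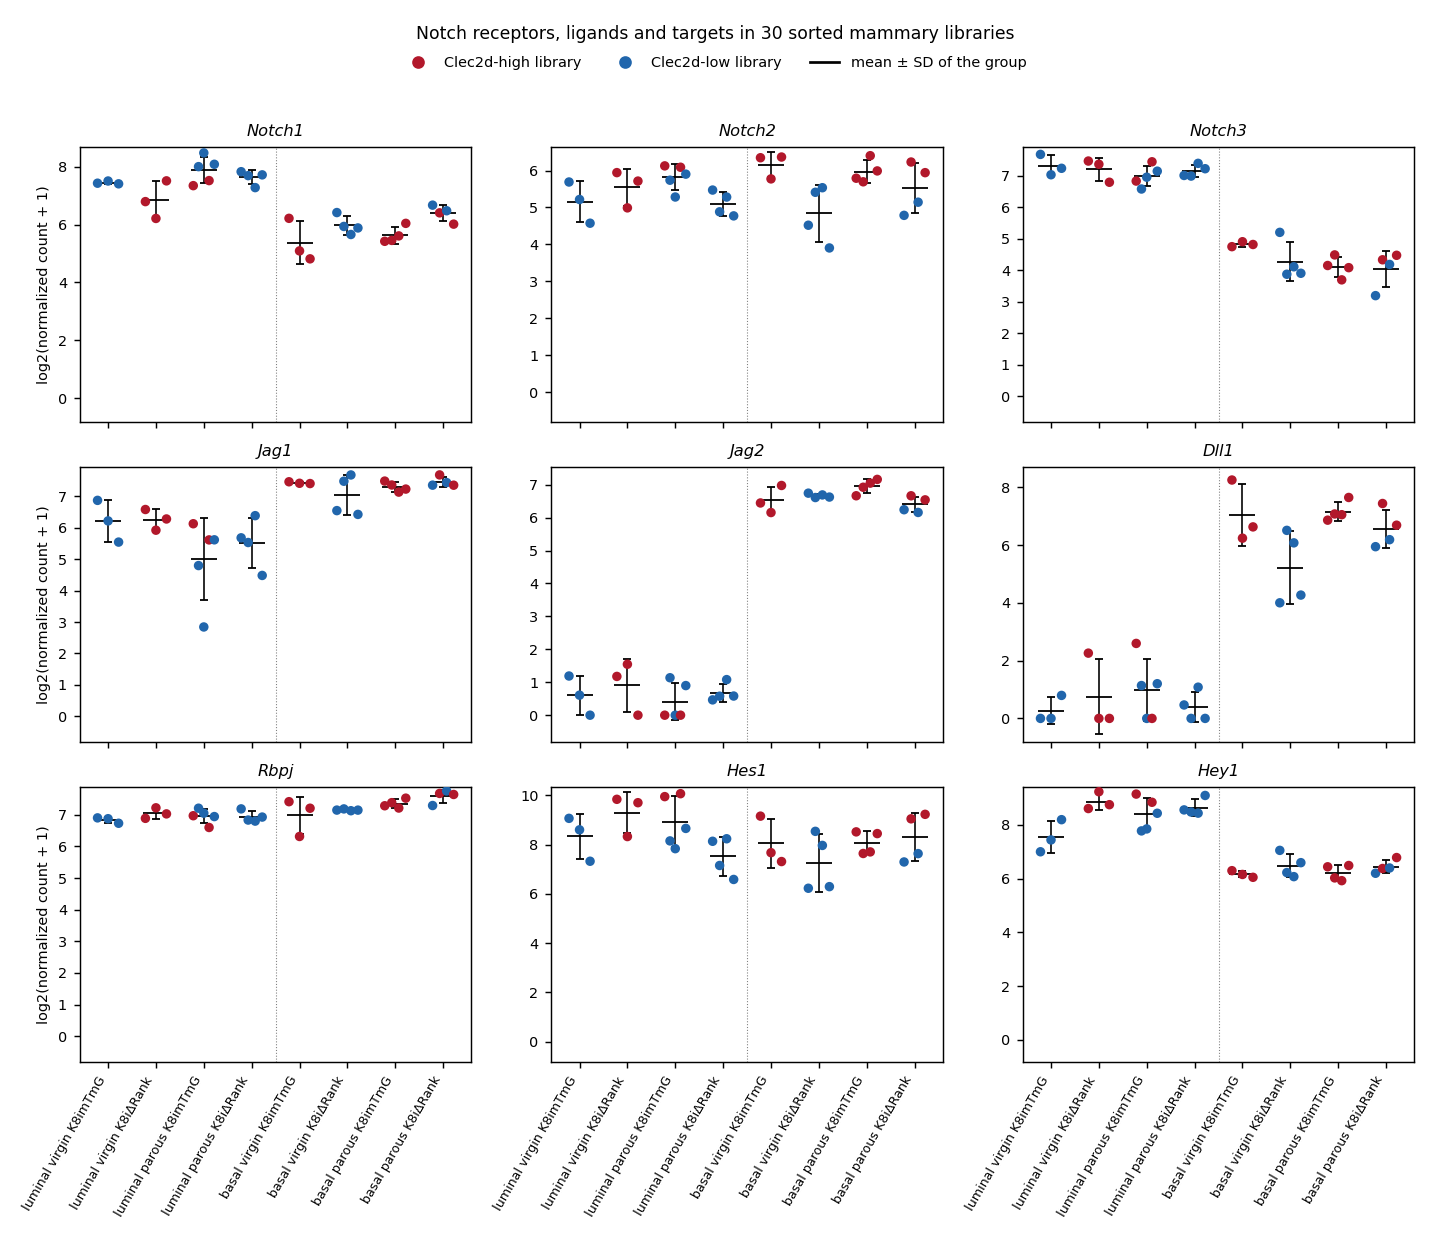
Levels of the 9 members in each library, as log2(normalized count + 1), with a panel for each gene and the 8 groups of lineage, stage and genotype along the horizontal axis. Points are libraries, red for those high and blue for those low in Clec2d, and bars give the mean ± SD. Jag2 and Dll1 sit near 0 in all 15 luminal libraries, and Notch3 separates the lineages without overlap.

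Notch3, a receptor, ranged from 94.4 to 203 with a median of 140.0 in the 15 luminal libraries and from 8.15 to 35.8 with a median of 17.2 in the 15 basal ones. The ranges did not overlap, as for 9.57% of all genes. The log2 difference was 2.85 (SE 0.15, adjusted p = 5.93e-16), and the level was higher in luminal cells in 13 of 13 mice. In the 4 conditions taken alone it was 2.49 in virgin K8imTmG, 2.93 in virgin K8iΔRank, 2.88 in parous K8imTmG and 3.10 in parous K8iΔRank mice, each past the threshold. From high to low, the group means were 161 ± 38.1 in virgin K8imTmG, 149 ± 35.0 in virgin K8iΔRank, 142 ± 19.3 in parous K8iΔRank and 128 ± 29.7 in parous K8imTmG luminal cells (SD, n of the groups as given above). They went on with 27.3 ± 1.54 in virgin K8imTmG, 19.9 ± 10.6 in virgin K8iΔRank, 16.5 ± 3.88 in parous K8imTmG and 16.4 ± 5.75 in parous K8iΔRank basal cells. Of the 7 steps in this order, the 6 within a lineage joined groups with overlapping libraries.

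Notch1, a receptor known for its role in cell fate, ranged from 73.1 to 354 (median 181) in luminal and from 27.2 to 101 (median 60.2) in basal libraries. Only 1 luminal library, virgin K8iΔRank replicate 2 at 73.1, lay within the basal range. The log2 difference was 1.61 (SE 0.15, 95% interval 1.30 to 1.91, adjusted p = 1.66e-10), again with 13 of 13 mice higher in luminal cells. It was 2.07 in virgin and 2.25 in parous K8imTmG mice, and 0.86 (interval 0.14 to 1.59, adjusted p = 0.0615) in virgin and 1.23 in parous K8iΔRank mice. In virgin K8imTmG mice luminal libraries were all Clec2d-low and basal ones all high, and the reverse held in virgin K8iΔRank mice. Notch1 was lower on the high side in both groups that hold both sides, as given below. A change of its lineage difference with genotype therefore cannot be told apart from this division. The log2 difference of Notch1 in virgin K8iΔRank mice passed with DESeq2 (0.95, adjusted p = 0.0348) and edgeR (0.93, adjusted p = 0.0493). In limma it passed with quantile normalization (0.0482), array quality weights (0.0068) and the mouse as a block (1.01, adjusted p = 0.0335). It also passed there without basal replicate 1 (0.0409) and without luminal replicate 2 (0.0221). The groups ran from 244 ± 76.8 in parous K8imTmG, 198 ± 31.0 in parous K8iΔRank, 173 ± 6.22 in virgin K8imTmG and 121 ± 54.9 in virgin K8iΔRank luminal cells down to 84.0 ± 15.4 in parous K8iΔRank, 63.0 ± 14.9 in virgin K8iΔRank, 49.3 ± 10.7 in parous K8imTmG and 44.5 ± 25.1 in virgin K8imTmG basal cells. Libraries of neighbouring groups overlapped at all 7 steps.

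Notch2, the third receptor measured, did not pass between the layers, and its difference varied in sign among the conditions. It ranged from 22.8 to 68.9 (median 43.4) in luminal and from 14 to 83.6 (median 53.7) in basal libraries, and the log2 difference was −0.22 (interval −0.59 to 0.16, adjusted p = 0.325). The luminal library was the lower one in 9 of 13 mice. In virgin K8imTmG mice its mean was 36.5 in luminal and 71.9 in basal libraries (interval of the log2 difference −1.83 to −0.17, adjusted p = 0.0593). In virgin K8iΔRank mice the log2 difference was 0.71 (interval −0.27 to 1.68, adjusted p = 0.232), and it was −0.14 and −0.42 in parous K8imTmG and K8iΔRank mice. The value in virgin K8imTmG mice passed with array quality weights (−0.93, adjusted p = 0.0159) and without luminal replicate 1 (−1.27, adjusted p = 0.0384). Luminal libraries there were all Clec2d-low and basal ones all high, and the reverse held in virgin K8iΔRank mice. Means ran from 71.9 ± 15.7 in virgin and 62.9 ± 14.7 in parous K8imTmG basal cells through 57.0 ± 12.6 in parous K8imTmG luminal, 48.9 ± 22.2 in parous K8iΔRank basal, 47.6 ± 15.3 in virgin K8iΔRank luminal, 36.5 ± 13.9 in virgin K8imTmG luminal and 34.0 ± 8.01 in parous K8iΔRank luminal to 30.7 ± 15.2 in virgin K8iΔRank basal cells. All 7 neighbouring pairs overlapped.

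The ligand Jag2 was close to absent from luminal libraries. There it had 15 reads in all, with 0 to 3 in each and 5 libraries at 0, and levels of 0 to 1.92 (median 0.497). In basal libraries it had 1479 reads and levels of 70.3 to 142 (median 100.4), with no overlap. Pooled by lineage, the basal level was 146 times the luminal one (exact 95% counting interval 88.2 to 261, which covers counting error only). Basal group means were 124 ± 17.8 in parous K8imTmG, 101 ± 4.35 in virgin K8iΔRank, 93.8 ± 28.1 in virgin K8imTmG and 84.4 ± 14.2 in parous K8iΔRank mice, and luminal means lay between 0.413 ± 0.578 in parous K8imTmG and 1.06 ± 0.977 in virgin K8iΔRank mice.

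Dll1, a Delta-like ligand, was likewise low in luminal cells. Its luminal libraries held 16 reads in all, 0 to 3 in each and 8 at 0, with a highest level of 5.04. Its basal libraries held 1550 reads, with levels of 15.0 to 303 (median 97.8). The basal level was 143 times the luminal one (interval 88.0 to 251). The basal groups spread more than those of Jag2, with 158 ± 126 in virgin K8imTmG, 145 ± 37.1 in parous K8imTmG, 102 ± 50.2 in parous K8iΔRank and 47.4 ± 36.8 in virgin K8iΔRank mice. Luminal means ran from 1.51 ± 2.07 in parous K8imTmG to 0.245 ± 0.425 in virgin K8imTmG mice, and neighbours overlapped throughout each lineage for both ligands. On the log2 scale the lineage difference was −5.99 (SE 0.18, adjusted p = 2.73e-21) for Jag2 and −5.89 (SE 0.32, adjusted p = 1.15e-15) for Dll1, and both were lower in luminal cells in 13 of 13 mice and in each of the 4 conditions.

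Jag1, the other Jagged ligand, was also higher in basal cells but was present in luminal ones. It ranged from 6.18 to 116 (median 50.2) in luminal and from 84.8 to 204 (median 168) in basal libraries. Of the luminal libraries 2 lay above the lowest basal one. The log2 difference was −1.56 (SE 0.24, adjusted p = 2.52e-06), and the luminal library was lower in 13 of 13 mice. It passed in 3 of the 4 conditions, at −1.22 in virgin K8imTmG, −2.30 in parous K8imTmG and −1.94 in parous K8iΔRank mice, and was −0.77 (adjusted p = 0.108) in virgin K8iΔRank mice. Leaving out luminal replicate 2 or basal replicate 1 or 2 ended the call in virgin K8imTmG mice, at adjusted p of 0.0603, 0.0571 and 0.0533, as did thinning the reads (−0.72, adjusted p = 0.156). Over all libraries thinning also raised the median of all genes, as given at the end. Means fell from 175 ± 19.7 in parous K8iΔRank, 171 ± 3.66 in virgin K8imTmG, 157 ± 16.8 in parous K8imTmG and 139.6 ± 60 in virgin K8iΔRank basal cells to 78.3 ± 35.4 in virgin K8imTmG, 77.0 ± 17.5 in virgin K8iΔRank, 49.8 ± 25.2 in parous K8iΔRank and 39.6 ± 23.9 in parous K8imTmG luminal cells, with overlap at all 7 steps. The mean luminal level of Jag1 was 35.9% of its basal level, against 0.565% for the basal keratin Krt5 and 0.693% for Krt14. Over the 11 basal markers this share ran from 0.512% (Myh11) to 5.23% (Lgals7).

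Rbpj, through which all Notch receptors act on DNA, was nearly even. It ranged from 95.9 to 148 (median 121) in luminal and from 78.5 to 215 (median 155) in basal libraries, which overlapped. The log2 difference was −0.33 (SE 0.10, adjusted p = 0.0054), with the luminal library lower in 11 of 13 mice. With reads thinned to the shallowest library it was −0.17 (adjusted p = 0.394). Thinning also raised the median of all genes between the lineages, as given at the end, so this loss is not read as an effect of depth. Of the 4 conditions only parous K8iΔRank passed (−0.65, adjusted p = 0.0112, and −0.42 with adjusted p = 0.302 when thinned). Group means were 193 ± 25.8 in parous K8iΔRank and 163 ± 15.6 in parous K8imTmG basal cells, then 141 ± 2.37 in virgin K8iΔRank basal, 132 ± 15.5 in virgin K8iΔRank luminal, 132 ± 47.3 in virgin K8imTmG basal, 124 ± 18.5 in parous K8imTmG luminal, 122 ± 15.6 in parous K8iΔRank luminal and 113 ± 7.15 in virgin K8imTmG luminal cells. Of neighbouring groups, only parous K8imTmG basal and virgin K8iΔRank basal did not overlap. Further down, virgin K8imTmG basal libraries reached 169 and virgin K8iΔRank luminal ones 148, within the range of parous basal libraries.

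Of the targets, Hey1 ranged from 127 to 599.9 (median 355) in luminal and from 59.7 to 132 (median 77.6) in basal libraries. The ranges touched through a single luminal library. The log2 difference was 2.04 (SE 0.15, adjusted p = 7.43e-13), with 13 of 13 mice higher in luminal cells and values of 1.38, 2.38, 2.19 and 2.20 in virgin K8imTmG, virgin K8iΔRank, parous K8imTmG and parous K8iΔRank mice, all past the threshold. Means fell from 473 ± 112 in virgin K8iΔRank, 405 ± 94 in parous K8iΔRank, 363 ± 149 in parous K8imTmG and 197 ± 85.0 in virgin K8imTmG luminal cells to 91.8 ± 29.2 in virgin K8iΔRank, 86.7 ± 15.7 in parous K8iΔRank, 74.6 ± 14.8 in parous K8imTmG and 71.0 ± 6.21 in virgin K8imTmG basal cells. Neighbours overlapped at every step.

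Hes1, a common readout of Notch activity, varied more within a lineage than between lineages. It ranged from 94.9 to 1067 (median 319) in luminal and from 73.9 to 597 (median 207) in basal libraries, and the log2 difference was 0.60 (interval −0.03 to 1.23, adjusted p = 0.10), higher in luminal cells in 8 of 13 mice. It reached 1.08 (adjusted p = 0.0019) once the Clec2d side entered the fit as a covariate and 0.68 (adjusted p = 0.0471) with thinned reads, and it passed without basal virgin K8imTmG replicate 1 (adjusted p = 0.0454) or basal virgin K8iΔRank replicate 2 (0.0483). In virgin K8iΔRank mice, whose luminal libraries were all Clec2d-high and basal libraries all low, it was 2.03 (adjusted p = 0.0239). That call ended without luminal replicate 1 (adjusted p = 0.101), luminal replicate 3 (0.0945) or basal replicate 4 (0.0649). In parous K8iΔRank mice, whose luminal libraries were all low, it was −0.77 (adjusted p = 0.230), and 0.06 (adjusted p = 0.929) among the Clec2d-low libraries alone. In virgin and parous K8imTmG mice it was 0.28 (adjusted p = 0.709) and 0.85 (adjusted p = 0.182). In the latter it passed among the Clec2d-high libraries alone (1.93, adjusted p = 0.0007) and with thinned reads (1.08, adjusted p = 0.0388). Thinned values of Hes1 are read against the rise in the median of all genes, over all libraries, that is given at the end. Means ran from 686 ± 321 in virgin K8iΔRank luminal, 592 ± 401 in parous K8imTmG luminal, 369 ± 225 in parous K8iΔRank basal and 359 ± 189 in virgin K8imTmG luminal through 309 ± 225 in virgin K8imTmG basal and 279 ± 88.8 in parous K8imTmG basal to 204 ± 101 in parous K8iΔRank luminal and 192 ± 144 in virgin K8iΔRank basal cells, with overlap at all 7 steps.

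**Figure D2:**
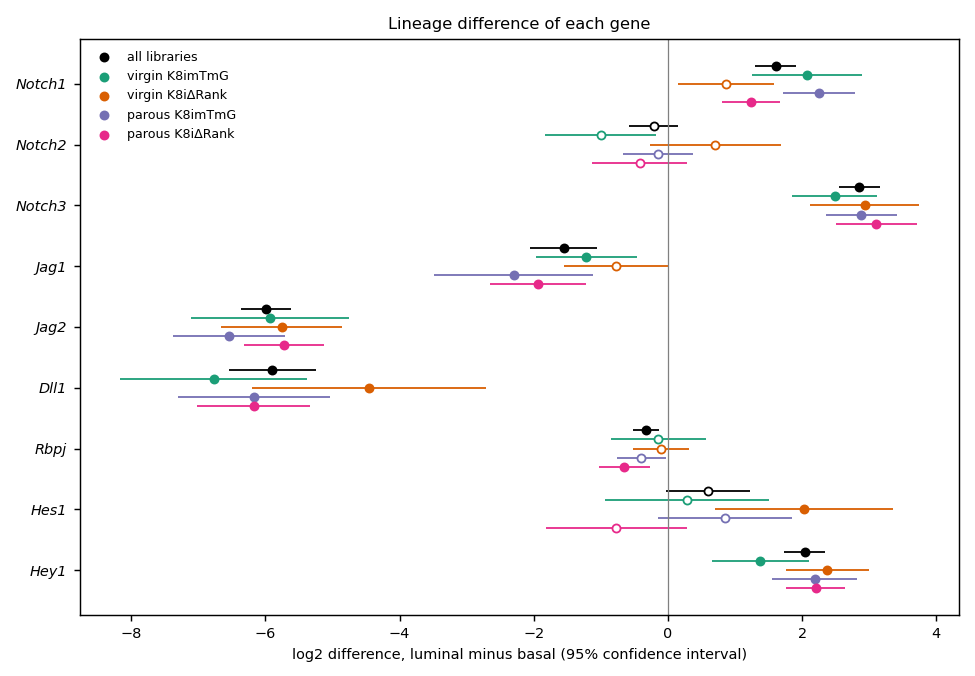
Log2 difference, luminal minus basal, of each member with its 95% interval, in all 30 libraries and in the 4 conditions of stage and genotype. Filled points passed an adjusted p of 0.05, and a value above 0 is higher in luminal cells. Notch1, Notch3 and Hey1 lie above 0 and Jag1, Jag2 and Dll1 below it in each of the 5 fits.

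Within conditions, 6 of 9 members passed in virgin K8imTmG mice (36.2% of all genes), 5 in virgin K8iΔRank mice (35.9%), 6 in parous K8imTmG mice (30.7%) and 7 in parous K8iΔRank mice (37%). Markers of other cells were counted beside these results, since a sort is not pure. Basal libraries held more of the 3 pericyte markers in the table of 9 listed (151 to 389 in sum against 11 to 55.1 in luminal libraries), of the 8 endothelial markers of 10 listed (120 to 1529 against 9.71 to 162), of the 8 fibroblast markers (686 to 1264 against 104 to 964.8) and of the 2 adipocyte markers of 5 listed (135 to 2669 against 15.5 to 178). The 3 immune markers of 8 listed summed to 36.0 to 106 in basal and 28.7 to 261 in luminal libraries, where Cd14 made up most of the sum (means of 144 luminal and 5.40 basal), whereas Cd74 (4.87 and 30.9) and Lyz2 (10.9 and 23.7) were higher in basal libraries. Dcn made up most of the fibroblast sum (means of 318 luminal and 487 basal), and the other fibroblast markers averaged 2.97 to 21.2 in luminal libraries. Fabp4 made up most of the basal adipocyte sum (26.8 luminal and 548 basal), beside Lpl at 50.4 and 62.4. The defining genes Ptprc, Tie1, Tek, Cspg4, Adipoq and Plin1 were not analysed here. The part of these cells in the ligand levels was not tested. Conversely, the mean basal level was 31.7% of the luminal one for Notch1, 13.7% for Notch3 and 22.5% for Hey1. For the 13 luminal markers it ran from 2.86% (Prlr) to 21.7% (Krt8). Epcam came next to Krt8 at 20.5%, and most of the 13 were at or below the 9.91% of Krt18, among them the alveolar factor Elf5 at 2.99%.

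Other genes of the pathway were read from a list of 59, of which 46 were in the table. Between the lineages 31 of the 46 passed, 22 higher and 9 lower in luminal cells, beside 55.7% of all genes (28.7% higher and 27% lower). The median log2 difference was 0.32 over the list and 0.04 over all genes. Of 8 genes of receptor cleavage 5 were higher and none lower over all libraries, with a median of 0.67. In virgin K8imTmG mice 3 were higher and 1, Aph1a, was lower (−1.14, adjusted p = 0.0175), and in parous K8imTmG mice 2 of 7 tested were higher. In K8iΔRank mice 3 of 7 were higher in virgin and 5 of 8 in parous glands. Levels in this paragraph are means of the group means of a lineage, not averages over its libraries. Adam10, the protease that makes the first cut, was at 472 in luminal and 97.8 in basal cells (log2 difference 2.12, adjusted p = 2.55e-13). Of 10 genes of ligand endocytosis and receptor trafficking 3 were higher and 3 lower, among them the Deltex ubiquitin ligase Dtx4 (116 against 22.3, 2.35) and Numbl, of the Numb family of Notch antagonists (8.50 against 41.8, −2.23). Of 5 genes of receptor glycosylation 1 was higher and 2 were lower, and Poglut1, which puts O-glucose on the receptors, was at 68.6 in luminal and 153 in basal libraries (−1.14). Of 17 nuclear cofactors 9 were higher and 2 lower, and the coactivator Maml2 was at 53.2 against 104 (−0.98). Of 5 other genes known as targets 4 were higher, with Ccnd1, a G1 cyclin, at 1372 against 195 (3.06) and Hes6 at 88.1 against 32.6 (1.41), whereas the growth regulator Myc was lower at 10.1 against 56.1 (−2.34). The only other receptor or ligand of the list in the table, Notch4, named after its value was seen, was lower in luminal cells (−1.52). Among the conditions it passed only in virgin K8iΔRank mice, and in parous K8imTmG mice it was too low to be tested. The part of other cells, such as endothelial ones, in its level was not tested.

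**Figure D3:**
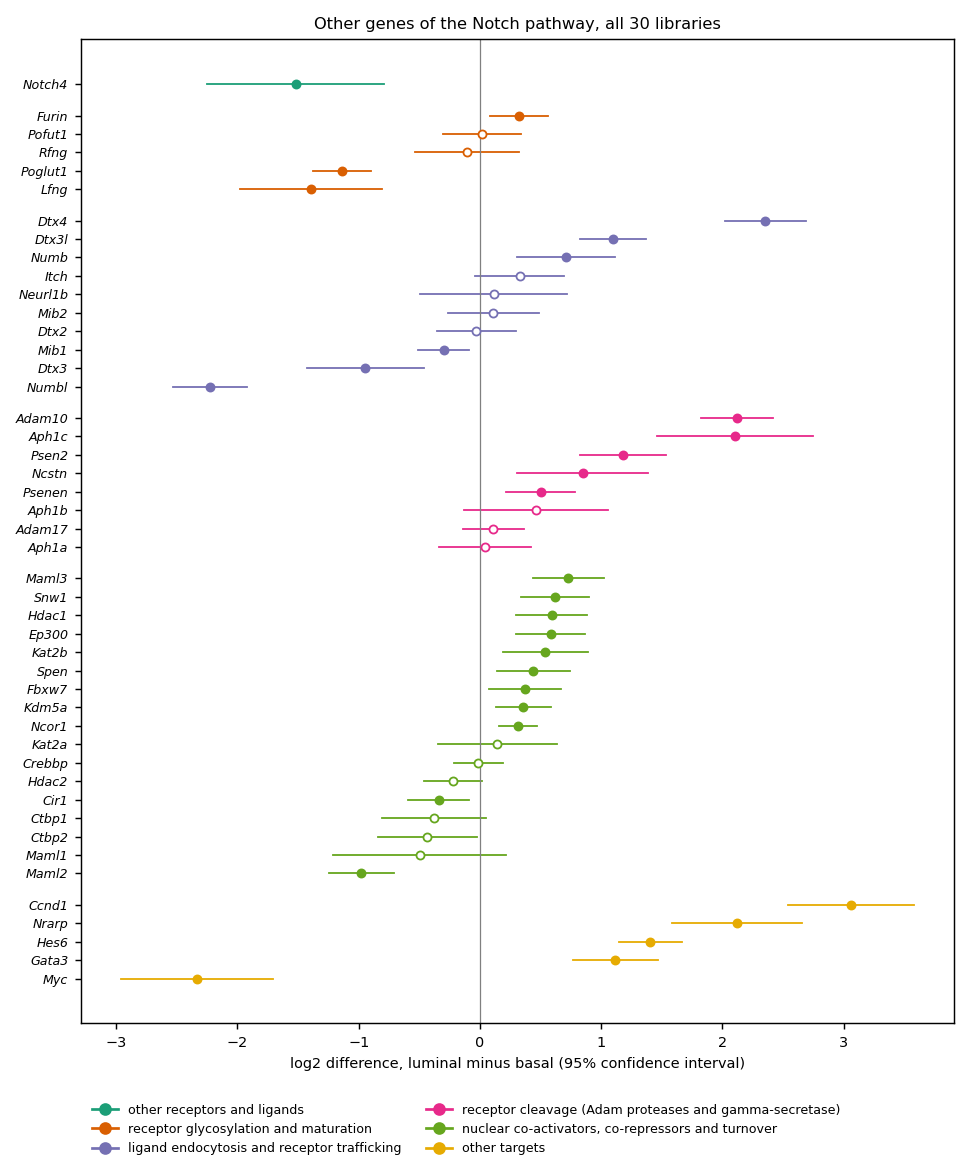
Log2 difference, luminal minus basal, over all 30 libraries for the 46 other pathway genes in the table, arranged by their step in the pathway, with 95% intervals. Filled points passed an adjusted p of 0.05. Of the 8 cleavage genes 5 are filled above 0 and none below it.

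K8iΔRank mice were compared with K8imTmG mice to ask whether losing luminal Rank changes either lineage, before or after pregnancy. No member passed in any of the 4 comparisons with limma, against 0.984% of all genes in virgin luminal, 0.0991% in parous luminal, 8.99% in virgin basal and 0.906% in parous basal cells. Jag2 and Dll1 were too low to be tested in luminal cells, so that 7 members were tested there and 9 in basal cells. Before adjustment, p was below 0.05 for 1 member in virgin luminal (Hey1), 2 in parous luminal (Notch2 and Hes1), 2 in virgin basal (Notch2 and Dll1) and 2 in parous basal cells (Notch1 and Jag2). Over all genes, in the same order, that held for 2226 of 10066, 2009 of 10090, 3111 of 10616 and 2393 of 10592, so such values are common. On the recovered reads edgeR called 0 in each, and DESeq2 called Hey1 in virgin luminal and Hes1 in parous luminal cells.

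In virgin luminal cells Hey1 was at 389, 599.9 and 429 in K8iΔRank and at 127, 172 and 291 in K8imTmG libraries. The K8iΔRank libraries were all above the control ones, as in one direction or the other for 28.3% of all genes. The log2 difference was 1.32 (interval 0.59 to 2.05, adjusted p = 0.0694), and 1.64 (adjusted p = 0.0382) without control replicate 3. Hes1 was at 911, 319 and 828 against 533, 386 and 159, with overlap and a difference of 0.96 (interval −0.14 to 2.05, adjusted p = 0.281). The other 5 members tested had differences of −0.61 to 0.39. The K8iΔRank libraries were all Clec2d-high and the controls all low.

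In parous luminal cells Hes1 was at 279, 141, 299.9 and 94.9 in K8iΔRank and at 983, 282, 227, 1067 and 402 in K8imTmG libraries. The 2 high controls were the Clec2d-high libraries, and the 3 others overlapped with the K8iΔRank libraries, which were all low. The difference was −1.40 (interval −2.55 to −0.26, adjusted p = 0.181) with all libraries and −0.69 (adjusted p = 0.286) among the Clec2d-low libraries alone. Notch2 differed by −0.73 (interval −1.24 to −0.21, adjusted p = 0.143), and Hey1 by 0.23 (interval −0.42 to 0.88).

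In virgin basal cells Notch2 was at 21.9, 41.6, 45.4 and 14 in K8iΔRank and at 80.4, 53.7 and 81.5 in K8imTmG libraries, without overlap. That holds for 28.2% of all genes, and the difference was −1.32 (interval −2.26 to −0.38, adjusted p = 0.0749). Dll1 was at 15.0, 89.9, 66.4 and 18.3 against 303, 74.4 and 97.8, with overlap and a difference of −1.83 (interval −3.34 to −0.31, adjusted p = 0.111). All K8iΔRank libraries here were Clec2d-low and all controls high. Fitted with all basal libraries, Notch2 (adjusted p = 0.0343) and Dll1 (0.0371) both passed, and Dll1 passed without K8iΔRank replicate 2 (−2.26, adjusted p = 0.0488).

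In parous basal cells Notch1 was at 101, 83.7, 88.0 and 63.6 in K8iΔRank and at 41.9, 42.8, 47.8 and 64.8 in K8imTmG libraries. The groups overlapped in 1 library each, and the difference was 0.76 (interval 0.27 to 1.25, adjusted p = 0.0926). Jag2 was at 74.6, 100.4, 70.4 and 92.1 against 100.5, 120.4, 131 and 142. These groups came close without overlapping, as did those of 12% of all genes, with a difference of −0.55 (interval −0.99 to −0.11, adjusted p = 0.147). Dll1 differed by −0.59 (adjusted p = 0.269) and passed without K8iΔRank replicate 2 (−0.89, adjusted p = 0.0475). With array quality weights Dll1 (−0.94), Notch1 (0.83) and Jag2 (−0.68) all passed.

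Of the other pathway genes, 1 of 45 tested passed in virgin luminal cells (0.984% of all genes). This was Aph1a, a subunit of gamma-secretase, which was higher by 1.31 in K8iΔRank mice (SE 0.24, adjusted p = 0.0424), whose libraries were all Clec2d-high beside controls that were all low. Within luminal parous K8imTmG mice Aph1a was at 679 and 716 in the high and at 182, 215 and 245 in the low libraries. Leaving out control replicate 2 or 3 or any K8iΔRank library left 0 genes. In virgin basal cells 4 of 45 passed, beside 8.99% of all genes: the coactivators Maml3 (1.28) and Ep300 (0.97) rose, and Aph1a (−1.52) and the Deltex gene Dtx3 (−1.36) fell. The K8iΔRank libraries here were all Clec2d-low and the controls all high. Within basal parous K8iΔRank mice the 4 genes differed between the low and the high libraries in these same directions. Ep300 was at 318 and 311 in the low and 119 and 145 in the high ones. The sides did not overlap there for 59.7% of all genes. In luminal parous K8imTmG mice Aph1a, Dtx3 and Ep300 kept these directions, whereas Maml3 turned. It was at 37.2, 36.2 and 39.8 in the low and 47.0 and 51.1 in the high libraries. The count of 4 dropped to 0 without control replicate 3 or K8iΔRank replicate 4 and to 2 without control replicate 2. No pathway gene passed in parous cells of either lineage with limma or edgeR, and DESeq2 called 2 in luminal and 3 in basal cells. Without K8iΔRank replicate 2, limma called 6 in parous basal cells. DESeq2 also called more of all genes than limma in both comparisons, as given below. These counts show how far the calls depend on the fit and are not read as a result about the pathway.

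Parous glands were compared with virgin glands within each genotype to follow the effect of a past pregnancy. Hes1 in K8iΔRank luminal cells was the only member to pass. It was at 911, 319 and 828 in virgin and at 279, 141, 299.9 and 94.9 in parous libraries, so that all parous libraries were below all virgin ones, as in one direction or the other for 29.7% of all genes. The log2 difference, parous minus virgin, was −1.76 (SE 0.44, adjusted p = 0.0241), where 16% of all genes passed. The virgin libraries were all Clec2d-high and the parous ones all low. The 8 fibroblast markers summed to 729 to 859 in the virgin and 179 to 425 in the parous libraries, and the 11 basal markers to 299 to 427 and 117 to 205. The fibroblast sum is mostly a single gene, Dcn, which averaged 318 over all luminal libraries, beside 2.97 to 21.2 for the other fibroblast markers. The part of other cells in this result was not tested. The call ended without parous replicate 2 (adjusted p = 0.0580) or 4 (0.0565), without virgin replicate 1 (0.0978) or 3 (0.0756), with all luminal libraries in the same fit (0.0918) and with thinned reads (−1.53, 0.0550). In K8imTmG luminal cells the difference of Hes1 was 0.60 (interval −0.68 to 1.89, adjusted p = 0.571).

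Notch1 was at 226, 205, 154 and 209 in parous and 109.8, 73.1 and 181 in virgin K8iΔRank luminal libraries, which overlapped, and differed by 0.79 (interval 0.17 to 1.41, adjusted p = 0.0771). Without virgin replicate 3 the difference was 1.12 (adjusted p = 0.0194), and with thinned reads 1.27 (adjusted p = 0.0247). In K8imTmG luminal cells it was at 161, 255, 354, 182 and 269.5 in parous and at 171, 180.4 and 169 in virgin libraries. The 3 highest parous libraries were those low in Clec2d, as all the virgin ones were. The difference was 0.44 (adjusted p = 0.365) with all libraries and 0.74 (adjusted p = 0.0404) among the Clec2d-low ones. Hey1 differed by 0.86 (interval 0.03 to 1.70, adjusted p = 0.220), and 0 of 7 members passed in K8imTmG luminal cells by limma, DESeq2 or edgeR, where 2.2% of all genes passed by limma.

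In basal cells no member and no other gene passed between stages by limma (0% in both genotypes). Before adjustment, p was below 0.05 for 969 of 10538 genes in K8imTmG and 1036 of 10525 in K8iΔRank mice, among them 0 and 2 members. The 2 were Dll1, with 60.5, 172, 71.7 and 102 in parous and 15.0, 89.9, 66.4 and 18.3 in virgin K8iΔRank libraries (1.35, adjusted p = 0.495), and Rbpj, with 156, 203, 215 and 199 against 141, 144, 139 and 141 (0.44, adjusted p = 0.493). Dll1 overlapped between the stages and Rbpj did not, as held for 6.1% of all genes. Neither DESeq2 nor edgeR called a member there, with 44 and 8 genes called in all in K8imTmG and 91 and 0 in K8iΔRank mice.

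**Figure D4:**
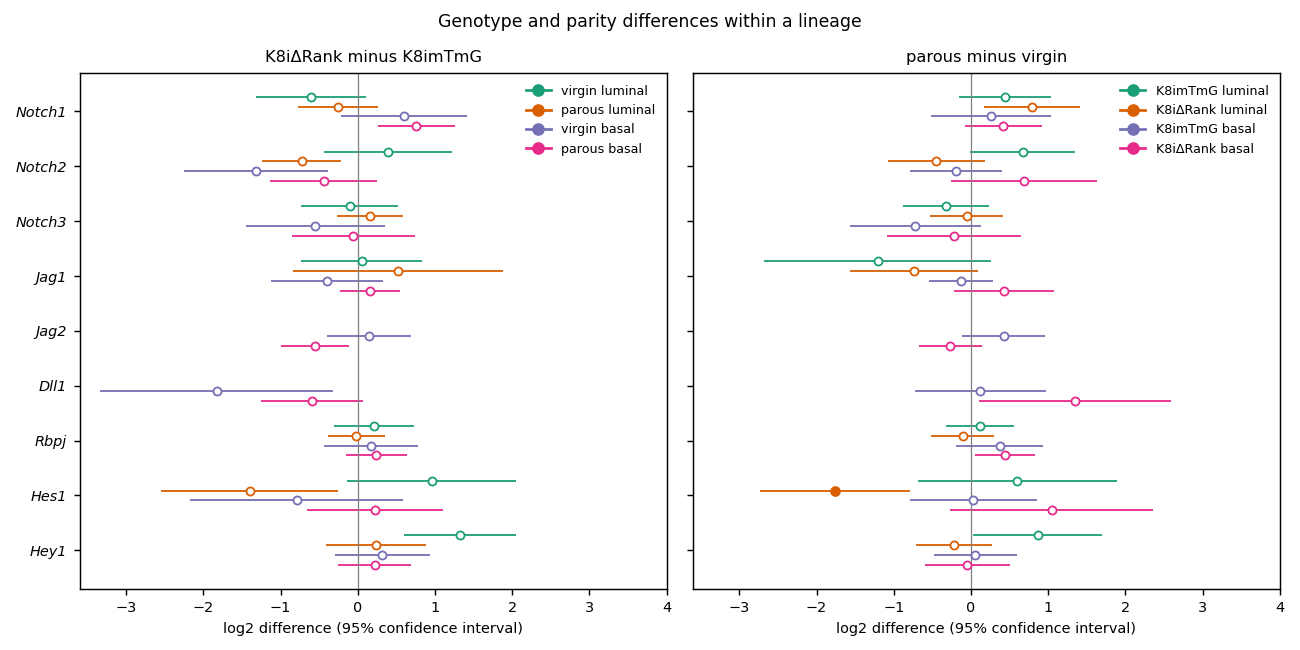
Log2 differences of the members with 95% intervals, K8iΔRank minus K8imTmG on one panel and parous minus virgin on the other, in luminal and basal cells. Filled points passed an adjusted p of 0.05. Hes1 in K8iΔRank luminal cells, at −1.76, is the only filled point.

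Of the other pathway genes, 2 of 45 passed between stages in K8imTmG luminal cells, beside 2.2% of all genes. Nrarp, a feedback inhibitor of Notch, rose by 1.58, from 18.4 to 37.7 in virgin to 70.6 to 115 in parous libraries (adjusted p = 0.0285), and Maml3 fell by 1.01 (adjusted p = 0.0447). The count of passing genes was 0 without any 1 of the 3 virgin libraries or without parous replicate 2, 4 or 5. It was 1 without parous replicate 3 and 6 without parous replicate 1. The shares of all genes in these fits are not given, so the counts show only how far the calls depend on single libraries. In K8iΔRank luminal cells 5 of 44 passed, beside 16% of all genes: the ubiquitin ligase gene Neurl1b (2.06) and the corepressor gene Spen (0.92) rose, and Aph1a (−1.22), Adam10 (−1.04) and the deacetylase gene Hdac1 (−0.70) fell. The 5 genes differed in these same directions between the Clec2d-low and Clec2d-high libraries of luminal parous K8imTmG mice. Neurl1b was at 149, 153 and 95.6 in the low and 18.5 and 35.2 in the high ones. The sides did not overlap there for 53.5% of all genes. The count of passing genes was 3 without parous replicate 1, 2 or 4 or virgin replicate 3, and 0 with all luminal libraries in the same fit.

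Whether the genotype difference depends on stage was asked with an interaction term, the difference in parous minus that in virgin mice. No member passed in luminal cells, where 12.9% of all genes did, or in basal cells, where 0% did and 1082 genes had an unadjusted p below 0.05. Before adjustment 3 luminal members (Notch2, Hes1 and Hey1) and 1 basal member (Jag2) were below 0.05. In luminal cells so were 3358 of all 10262 genes. Of the count tools, edgeR called 0 in both lineages, and DESeq2 called Hes1 in luminal and 0 in basal cells. In limma Hes1 passed without virgin control replicate 1 (adjusted p = 0.0483), parous control replicate 3 (0.0393) or virgin K8iΔRank replicate 2 (0.0465), and Notch2 without virgin control replicate 1 (0.0480). The luminal interaction of Hes1 was −2.36 (interval −4.10 to −0.62, adjusted p = 0.0657), that of Notch2 −1.12 (adjusted p = 0.0908) and that of Hey1 −1.09 (adjusted p = 0.125). With the Clec2d side as a covariate Hes1 was at 0.15 (adjusted p = 0.954) and Hey1 at 0.28. The side term rests on luminal parous K8imTmG mice alone, the only luminal group with libraries on both sides. It is carried over to groups where side, genotype and stage cannot be told apart, so this fit cannot separate them. Of the other pathway genes 8 of 45 passed in luminal cells, 7 with a higher term in parous mice, led by the protease gene Furin (1.42), Ep300 (1.12), Spen (1.55) and Maml3 (1.00), and Aph1a with a lower one (−1.90). With the covariate 0 of the 8 passed, where 5 of all genes did in place of 1326. In the fit without it, 0 to 5 pathway genes passed when virgin control replicate 2 or 3, any virgin K8iΔRank library, or parous K8iΔRank replicate 2, 3 or 4 was left out.

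Libraries on both sides of the Clec2d division occurred in 2 groups, where genotype, stage and lineage are the same. In luminal parous K8imTmG mice Hes1 was at 983 and 1067 in the high and at 282, 227 and 402 in the low libraries. Hey1 was at 564 and 457 against 218, 229 and 344, and Notch2 at 68.9 and 67.1 against 52.4, 37.9 and 58.8. These 3 were higher on the high side without overlap, and Notch1, at 161 and 182 against 255, 354 and 269.5, was lower. In basal parous K8iΔRank mice Hes1 was again higher on the high side, at 526.03 and 597 against 156 and 197. Notch2 was at 74.1 and 60.5 against 26.6 and 34.3, and Dll1 at 172 and 102 against 60.5 and 71.7. Jag2 and Notch3 were higher there too, and Notch1 was lower, at 83.7 and 63.6 against 101 and 88.0. In all, 4 of 7 luminal members did not overlap (53.5% of all genes) and 6 of 9 basal members did not (59.7%), which is near the background. Hes1, Notch2 and Notch1 separated the sides without overlap and in the same direction in both groups. These are 3 of the 7 members measured in both, against 33.2% of all genes. By their means Hey1, Notch3 and Jag1 were also higher on the high side in both groups, with overlap in at least 1 of them. Rbpj turned direction between the groups.

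**Figure D5:**
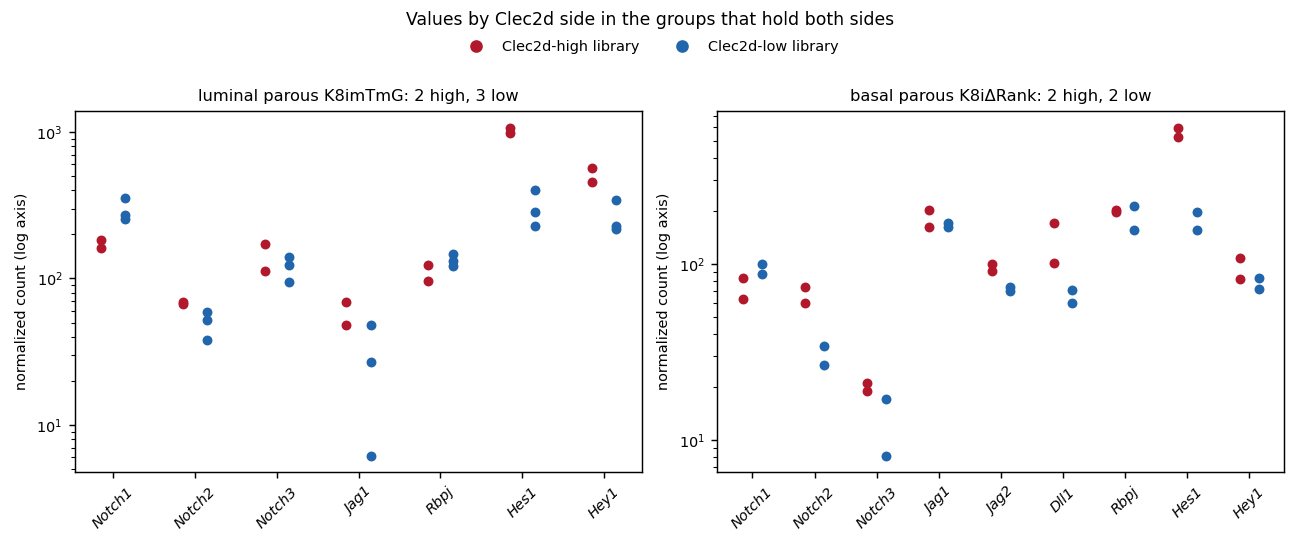
Normalized counts (log axis) of the members in the 2 groups that hold libraries on both sides of the Clec2d division, luminal parous K8imTmG and basal parous K8iΔRank. Each point is a library, red for high and blue for low in Clec2d. Hes1 and Notch2 are higher and Notch1 is lower in the high libraries of both groups.

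The genes whose pattern over the 30 libraries was most like that of each member were found by Pearson's r of log2(normalized count + 1). The libraries share lineages, mice and the Clec2d division, so that these values describe the table and carry no test. Notch3 went with Mlph (0.969), Cldn8 (0.965) and Cmtm8 (0.960), and Notch1 with Fcgbp (0.945), the mucin gene Muc1 (0.934) and the epithelial transcription factor gene Ehf (0.931). Notch2 went with Ctnnd1 (0.931), Sem1 (0.930) and Adcy6 (0.924). Of the ligands, Jag2 went with the laminin gene Lama3 (0.988), Loxl3 (0.985) and Axl (0.985), Dll1 with Rbpms (0.975), Popdc2 (0.974) and Tafa5 (0.971), and Jag1 with Marcks (0.903), Creb3l2 (0.895) and Cav1 (0.894). Hey1 went with Cpsf4l (0.922), Cck (0.921) and Zfp750 (0.920), and Hes1 with Cmtm6 (0.919), Sdcbp (0.892) and Zfp710 (0.887). Rbpj had the lowest values, with Map4k5 (0.809), Lpcat2 (0.789) and Gm1673 (0.751).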

How the data were processed

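RNA of sorted luminal and basal cells was read from the 3′ end with QuantSeq and UMIs of 6 nt (RIN 2.5 to 8.6 per the labels). The authors trimmed with BBDuk, deduplicated with UMI-tools, aligned to GRCm39 with Bowtie2, checked quality with FastQC 0.11.9, counted with GENCODE vM26, normalized with DESeq2 and kept genes above 10 in at least 25% of samples. The deposited signal values are such normalized counts. Dividing by the smallest step of each library gave whole reads for 100% of values (tolerance 0.01). All columns were used.

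Groups were compared with limma 3.58.1 (trend) on log2(value + 1), over genes above 10 in at least 25% of the libraries compared, in 15 comparisons, each with Benjamini-Hochberg adjustment over all genes tested in it. A gene was called at an adjusted p below 0.05. DESeq2 1.42.0 and edgeR 4.0.16 on recovered reads were alternatives, and edgeR called 6219 genes between the lineages. R 4.3.3, Python 3.11.15 and pandas 2.3.3 were used, and the tests were tried on simulated data. Members, lists and comparisons were chosen with earlier results of these data known. All members are named, with up to 4 pathway genes per direction and comparison with the lowest adjusted p, and the 3 genes most like each member. A few genes of the pathway list are not reported here.

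Replicates are separate mice. The labels give the mouse, and 13 mice gave both lineages. Deviations of their libraries from the group means correlated at −0.24 to 0.34 (median 0.09).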

Additional observations from a re-analysis of the deposited data

Results flagged for a closer look

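The groups of 4 or 5 libraries gave 45 sets of member values. Those of Jag2 and Dll1 in luminal cells, with at most 3 reads in a library, were passed over. The others were examined for a library apart from the rest, and 2 held such a library, where chance alone gives about 1 in 20. Notch3 in basal virgin K8iΔRank replicate 1 was at 35.8, against 13.6 to 16.3 in the other 3 libraries. Hey1 in luminal parous K8iΔRank replicate 4 was at 545, against 345 to 375 in the other 3.

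For 5 of the pathway genes named above, the luminal genotype difference differed between parous and virgin mice by the interaction test: Furin (1.42), Ep300 (1.12), Spen (1.55), Maml3 (1.00) and Aph1a (−1.90). None of them passed with the Clec2d side as a covariate. That term rests on luminal parous K8imTmG mice alone, and 5 of all genes passed with it in place of 1326. Aph1a was at 679 and 716 in the Clec2d-high and at 182, 215 and 245 in the low libraries of luminal parous K8imTmG mice.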

How the results depend on the processing

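The 32 values of members that passed were refitted 376 times under other settings: 371 kept direction and call, 5 lost the call and 0 turned direction. Among 398 refits without a library 10 lost it. Members that had not passed were refitted 1056 times, of which 48 changed sign and 30 passed, none of these 30 with the other sign. With array quality weights 3 members passed between genotypes in virgin luminal and 3 in parous basal cells, 4 between stages in K8imTmG luminal cells and 2 in the luminal interaction. DESeq2 called 1 between genotypes in virgin luminal, 1 in parous luminal cells and 1 in the luminal interaction. Between the lineages in virgin K8iΔRank mice DESeq2 and edgeR each called 6 in place of 5, with Notch1 gained. Fitting all libraries of a lineage at once gave 2 members between genotypes in virgin basal cells and 0 between stages in K8iΔRank luminal cells, and Clec2d-low libraries alone gave 1 between stages in K8imTmG luminal cells. The cause of these changes was not tested. Without 1 library at a time, 7 to 8 members passed between the lineages, 5 to 7 in virgin K8imTmG, 6 in parous K8imTmG, 4 to 6 in virgin K8iΔRank and 7 in parous K8iΔRank mice. Between genotypes 0 to 1 passed in virgin luminal, virgin basal and parous basal and 0 in parous luminal cells. Between stages 0 to 1 passed in K8iΔRank luminal and 0 in the other 3 sets, and in the interactions 0 to 2 in luminal and 0 in basal cells. Where an arm was left with few libraries, the spread was pooled over both groups. With the mouse as a replicate block, 7 members passed over all libraries, 6, 6 and 7 in virgin K8imTmG, parous K8imTmG and parous K8iΔRank mice and 6, in place of 5, in virgin K8iΔRank mice, where Notch1 was gained. The block changed no other call of a member. Over all genes the calls rose with array quality weights and with DESeq2, from 99 to 2514 and 648 between genotypes in virgin luminal, from 10 to 1147 and 611 in parous luminal, from 96 to 2572 and 645 in parous basal cells, from 226 to 3993 and 1060 between stages in K8imTmG luminal cells and from 1326 to 2671 and 1990 in the luminal interaction. With the Clec2d side as a covariate 5 remained of the last, as a count. All libraries of a lineage at once gave 227 genes in place of 1643 between stages in K8iΔRank luminal and 1804 in place of 954 between genotypes in virgin basal cells. Thinning moved the median of all genes between the lineages from 0.04 to 0.17, so thinned values are read against it. Depth limits Jag2 and Dll1 in luminal cells, where a library held at most 3 reads of either.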
